A study of Mus musculus with 4 samples.

Results

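The secretory products of goblet cells were followed in RNA sequencing data from mouse intestinal cells sorted for high expression of an Lgr5-GFP reporter, with and without the gene for CREPT. The 9 genes were taken by symbol from the gene table and are Muc2, Tff3, Fcgbp, Zg16, Clca1, Spink4, Agr2, Ern2 and Ccl9. All 9 were found among the 18436 rows of the table, and all 9 passed the filter on low values that left 12621 genes for testing. The control group, Lgr5-WT, consisted of 2 mice carrying Lgr5-GFP-CreERT2, in which the Lgr5 promoter drives both GFP and a tamoxifen-activated Cre recombinase. The knockout group, Lgr5-CREPTKO, consisted of 2 mice with the same Cre and floxed CREPT alleles (CREPT fl/fl, exon 3 floxed). Both groups were C57BL/6 mice that received tamoxifen at 1 mg per day for 5 days, and the cells were sorted on day 7, so Cre and tamoxifen were shared by controls and knockouts. GFP from this allele is mosaic, so that not every Lgr5+ cell is labelled, and how many of the sorted cells had recombined was not measured. Mice of both sexes, 6 to 8 weeks old, were used throughout, and the age and sex of each of the 4 mice were not given in the sources used here.

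Goblet cells are secretory cells of the intestinal epithelium that make the mucus layer. They arise from crypt progenitors in which Atoh1 is active, and Spdef promotes their maturation. Muc2 is the gel-forming mucin of that layer, and its synthesis places a heavy load on folding and disulfide formation in the endoplasmic reticulum. In bulk RNA, fewer cells of a type and less RNA per cell cannot be told apart.

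The sorted populations had the markers of crypt stem cells. Olfm4 lay between 4932 and 5351 FPKM (mapped fragments divided by transcript length and by the size of the library). Lgr5, the gene of the sorted reporter, stood at 47.67 and 37.70 FPKM in the Lgr5-WT mice and at 52.04 and 60.10 FPKM in the Lgr5-CREPTKO mice. Both genes were higher in the knockouts without overlap, a pattern found in 25.6% of all genes. Neither passed the limma test, with an adjusted p of 0.685 for Olfm4 and 0.176 for Lgr5. The targeted gene, Rprd1b, which encodes CREPT, stood at 17.69 and 18.09 FPKM in the Lgr5-WT mice and at 6.65 and 7.36 FPKM in the Lgr5-CREPTKO mice. Its log2 fold change was -1.29 (SE 0.0946, limma adjusted p = 0.0280), so 39.2% of the control level remained. FPKM counts the whole transcript and not only the floxed exon, and Rprd1b overlaps Gm20412 on its own strand and Tgm2 and an antisense gene on the other. Total FPKM per mouse ran from 468830 to 499327, and the table carries no read counts, so the depth of each library is unknown.

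The gene starts are shown first, as sequence context for genes that had lower mean levels in the knockouts. RefSeq promoters on GRCm38.p6, each of 250 bases before and 50 bases after the start, were matched by symbol for 4 of the 9 genes, namely Muc2, Agr2, Ccl9 and Fcgbp. Those of the mucin itself, of Agr2 with the lowest fold change and of Ccl9 with the lowest among the genes past the test are printed 5′ to 3′ on the strand of the gene. Capitals mark matches to CAGCTG, an E-box of the kind bound by factors such as Atoh1, and to GGAT on either strand, the core bound by ETS factors such as Spdef.
Muc2, chr7:141690090-141690389, plus strand: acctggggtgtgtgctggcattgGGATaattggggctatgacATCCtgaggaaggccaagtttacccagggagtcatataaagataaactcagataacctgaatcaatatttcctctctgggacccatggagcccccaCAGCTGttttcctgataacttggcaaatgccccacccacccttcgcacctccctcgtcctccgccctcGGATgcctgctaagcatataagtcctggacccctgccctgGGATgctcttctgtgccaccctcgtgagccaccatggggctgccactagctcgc
Agr2, chr12:35992675-35992974, plus strand: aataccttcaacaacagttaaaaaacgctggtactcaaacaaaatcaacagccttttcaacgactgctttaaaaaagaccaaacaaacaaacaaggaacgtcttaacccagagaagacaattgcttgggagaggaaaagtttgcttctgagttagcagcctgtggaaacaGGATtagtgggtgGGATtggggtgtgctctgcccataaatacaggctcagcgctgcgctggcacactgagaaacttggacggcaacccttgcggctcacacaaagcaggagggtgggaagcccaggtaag
Ccl9, chr11:83578587-83578886, minus strand: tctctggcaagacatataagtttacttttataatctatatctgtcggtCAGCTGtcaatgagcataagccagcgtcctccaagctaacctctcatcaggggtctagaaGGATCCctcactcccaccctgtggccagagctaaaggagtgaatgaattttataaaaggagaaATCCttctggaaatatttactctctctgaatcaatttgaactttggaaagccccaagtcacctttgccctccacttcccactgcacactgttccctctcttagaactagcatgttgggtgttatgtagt

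The hexamer CAGCTG, which reads the same on both strands, occurred 1 time each in the promoters of Muc2, Ccl9 and Fcgbp, with its first base at -112, -202 and -208 from the start site, and was not in the window of Agr2. Of all 32851 promoters of the same length in the reference, 16.3% held it. GGAT (or ATCC) occurred in all 4 promoters, with 2 matches in Agr2 and Fcgbp, 3 in Ccl9, of which a pair overlap, and 4 in Muc2, and 79.6% of all promoters held it. None of the 4 windows held CAGATG, a second E-box found in 17.2% of promoters on either strand, or ACGTG, the core of elements bound by Xbp1, found in 19.6%. TGTTTAC, a forkhead motif, was likewise in none of the 4 and in 3.65% of all promoters. These matches are letters in a window and were not tested for binding.

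The comparison of the genotypes asked whether products of the goblet lineage differed between Lgr5-GFP high cells with and without CREPT. Spink4, Ern2 and Ccl9 fell in the knockouts, to between 34.9% and 40.2% of the mean control FPKM, and the other 6 genes had lower means but did not pass the test. Over the 9 genes the median log2 fold change was -1.17, with a range from -1.43 to -0.86, against a median of -0.01 over all genes tested. Fold changes are Lgr5-CREPTKO minus Lgr5-WT on the scale of log2(FPKM + 0.5), and a gene was called when its limma p, adjusted over all 12621 genes, was below 0.05 and its absolute log2 fold change above 1. By this rule 3 of the 9 genes were called lower and 0 higher, and among all genes tested 1.01% were called lower and 0.127% higher. Before adjustment, 7 of the 9 were lower at p below 0.05, as were 15.2% of all genes. At an adjusted p below 0.05 with no limit on the fold the count was also 3 of 9, with 2.67% of all genes lower and 0.412% higher. For 8 of the 9 genes both knockout values lay below both control values, a pattern found in 31.0% of all genes, while 25.6% showed the opposite one. With 2 mice per genotype an exact permutation test has 6 arrangements and cannot reach 0.05, so no single gene was tested in that way.

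**Figure D1:**
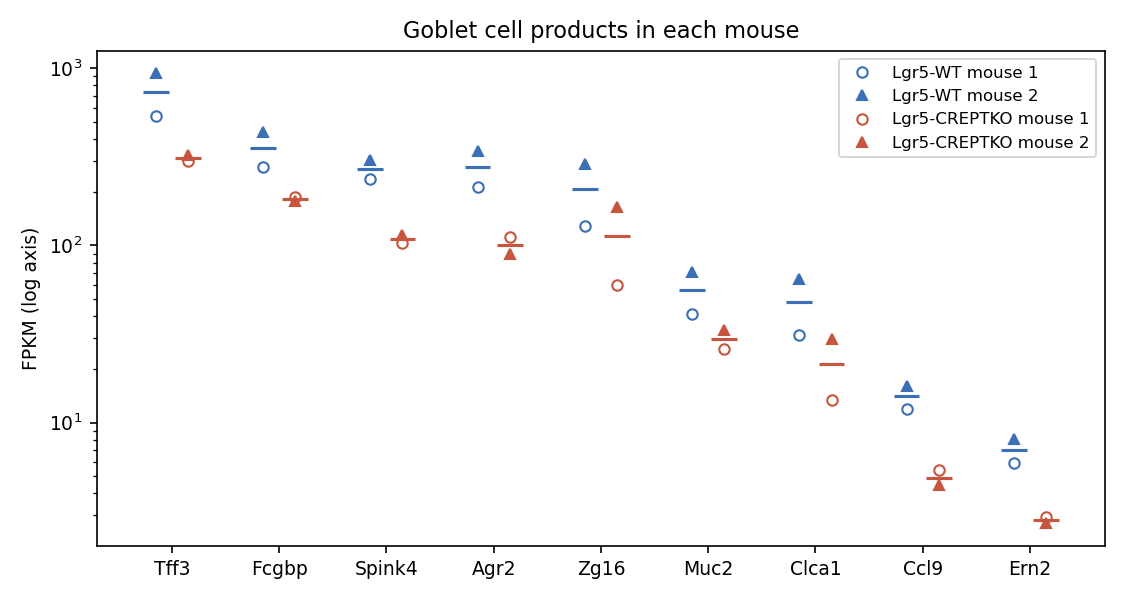
FPKM of the 9 goblet cell genes in each of the 4 mice on a log axis, ordered by mean level, with mouse 1 of each genotype as an open circle, mouse 2 as a filled triangle and the mean as a bar. The knockout values (red) lie below both control values (blue) for every gene except Zg16, whose second knockout mouse, at 165.19 FPKM, exceeds the first control at 128.70 FPKM.

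Levels of the 9 genes ranged from 2.71 to 936.55 FPKM. FPKM compares genes only as far as the transcript lengths behind it are right, and these were not checked. Tff3 was the highest in every mouse, followed by Fcgbp, and made up 34.4% to 38.0% of the summed FPKM of the 9. Spink4, Agr2 and Zg16 came next and exchanged places between mice. Muc2 lay above Clca1 in every mouse, by a margin smaller than the difference between the control mice, and Ccl9 and Ern2 were the lowest. Together the 9 genes summed to 1483 and 2465 FPKM in the control mice and to 811 and 943 FPKM in the knockouts. This was 0.299% and 0.494% of all FPKM in the controls and 0.173% and 0.199% in the knockouts, so the groups did not overlap.

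Muc2 (chr7:141690340-141754691, plus strand, GRCm38.p6), the gel-forming mucin, was measured at 41.27 and 70.75 FPKM in the controls and at 26.05 and 33.55 FPKM in the knockouts. The groups did not overlap, but the control mice differed from each other by more than the gap between the groups. The log2 fold change of -0.86 (SE 0.277, 95% interval -1.57 to -0.15) did not pass the test, with a limma adjusted p of 0.150. It had the smallest fold change of the 9.

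Fcgbp and Zg16 encode proteins found in the mucus with Muc2. Fcgbp (chr7:28071236-28120864, plus strand), the IgG Fc binding protein with many von Willebrand D domains, stood at 276.27 and 435.59 FPKM in the controls and at 188.54 and 178.79 FPKM in the knockouts. The knockout values lay close together below both controls, with a log2 fold change of -0.92 (SE 0.219, limma adjusted p = 0.0915). Of the 50-base words in its annotated transcripts 6.42% also occur in another gene, almost all in 9530053A07Rik, so part of its signal could be divided between them. Zg16 (chr7:127050156-127052675, minus strand), a lectin that binds the wall of Gram-positive bacteria, was the only one of the 9 whose groups overlapped. Its values were 128.70 and 286.52 FPKM in the controls and 59.92 and 165.19 FPKM in the knockouts. The log2 fold change of -0.94 had a 95% interval from -2.46 to 0.58 (limma adjusted p = 0.388). Zg16 is overlapped on the opposite strand by the lincRNA Gm44939 and the snRNA Gm22747, and the others of the 9 overlap no annotated gene.

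Clca1 (chr3:145004537-145032776, minus strand) encodes a secreted metalloprotease that acts on the Muc2 network. It was measured at 31.23 and 64.37 FPKM in the controls and at 13.49 and 29.61 FPKM in the knockouts. The groups were separated only narrowly, since the lower control was 1.05 times the higher knockout. The log2 fold change was -1.14, with a 95% interval from -2.39 to 0.10 (limma adjusted p = 0.231).

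Tff3 and Spink4 are small secreted peptides. Tff3 (chr17:31125306-31129611, minus strand), the trefoil factor that promotes epithelial repair, stood at 537.33 and 936.55 FPKM in the controls and at 300.36 and 324.32 FPKM in the knockouts. Both knockouts were well below both controls, but the controls were far apart, and the log2 fold change of -1.18 (SE 0.265) had a limma adjusted p of 0.0823. Spink4 (chr4:40920056-40931395, plus strand), of the Kazal family of serine protease inhibitors, stood at 237.53 and 304.24 FPKM in the controls and at 102.65 and 115.21 FPKM in the knockouts. The lower control was 2.06 times the higher knockout. Spink4 fell by 1.30 on the log2 scale (SE 0.139, 95% interval -1.66 to -0.94, limma adjusted p = 0.0333), to 40.2% of the control mean.

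Agr2 and Ern2 act in the endoplasmic reticulum of mucin-producing cells. Agr2 (chr12:35992925-36004081, plus strand), a protein disulfide isomerase needed for the production of Muc2, had 212.62 and 342.97 FPKM in the controls and 111.29 and 89.10 FPKM in the knockouts. Its log2 fold change of -1.43 (SE 0.248) was the lowest of the 9, but its limma adjusted p of 0.0577 missed the threshold. Ern2 (chr7:122169893-122186239, minus strand) encodes IRE1β, the epithelial sensor of unfolded proteins, and was the lowest of the 9 in level. It stood at 5.93 and 8.14 FPKM in the controls and at 2.94 and 2.71 FPKM in the knockouts. Ern2 fell by 1.17 on the log2 scale (SE 0.178, limma adjusted p = 0.0473), with the lower control at 2.02 times the higher knockout.

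Ccl9 (chr11:83572917-83578636, minus strand) encodes a CC chemokine that attracts myeloid cells through Ccr1. It was measured at 12.02 and 16.09 FPKM in the controls and at 5.38 and 4.43 FPKM in the knockouts. The lower control was 2.23 times the higher knockout, the widest such separation of the 9. Ccl9 fell by 1.42 on the log2 scale (SE 0.177, 95% interval -1.88 to -0.97, limma adjusted p = 0.0373), to 34.9% of the control mean.

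**Figure D2:**
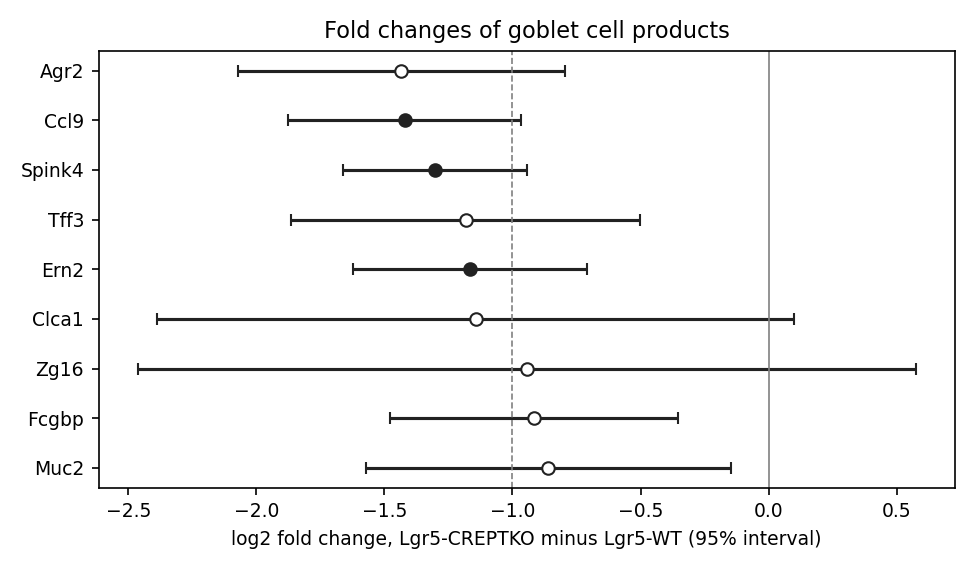
Log2 fold change of each gene (Lgr5-CREPTKO minus Lgr5-WT, in log2(FPKM + 0.5)) with its 95% interval from limma, filled where the gene was called, with a solid line at 0 and a dashed line at -1. All 9 estimates lie between -1.43 and -0.86, and the intervals of Clca1 and Zg16 include 0.

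The 3 calls did not hold when a mouse was removed. This was shared by every gene called, the targeted Rprd1b among them, so it says nothing particular about the 3 genes. The log2 fold change of Rprd1b stayed between -1.36 and -1.23. With any 1 of the 4 mice left out, limma called 0 of the 9 genes and 0 of all genes tested in either direction, while 4 to 7 of the 9 were lower at an unadjusted p below 0.05, against 9.33% to 12.6% of all genes, and all 9 had a negative fold change. Without mouse 2 of the controls, the median over the 9 genes was -0.78, and without mouse 1 of the controls it was -1.52.

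The 9 genes shared a pattern within the control genotype. All 9 were higher in mouse 2 than in mouse 1 of the controls, with a ratio from 1.28 for Spink4 to 2.23 for Zg16 and a median of 1.61. Over all genes the median ratio of these 2 mice was 1.0. Within the knockouts 5 of the 9 were higher in mouse 2, with a median ratio of 1.08 and a range from 0.80 for Agr2 to 2.76 for Zg16.

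Clca1 and Zg16 differed most between the knockout mice. Zg16 was 2.76 times as high in the second knockout mouse as in the first, at 165.19 against 59.92 FPKM. Agr2, Ccl9, Ern2 and Fcgbp were lower in the second than in the first. Without the second knockout mouse the log2 fold change of Zg16 was -1.67, and without the first knockout mouse it was -0.22. For Clca1 the corresponding values were -1.70 and -0.59. The second knockout mouse had the highest sum over the 23 Paneth cell markers in the table, at 3990 FPKM. The other knockout had 1308 FPKM and the controls 1891 to 2180 FPKM. The second knockout mouse also had the highest sum over 14 immune cell markers, at 24.3 FPKM against 8.10 to 18.4 in the others. The part of Paneth and immune cells in the values of Zg16 and Clca1 was not tested.

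**Figure D3:**
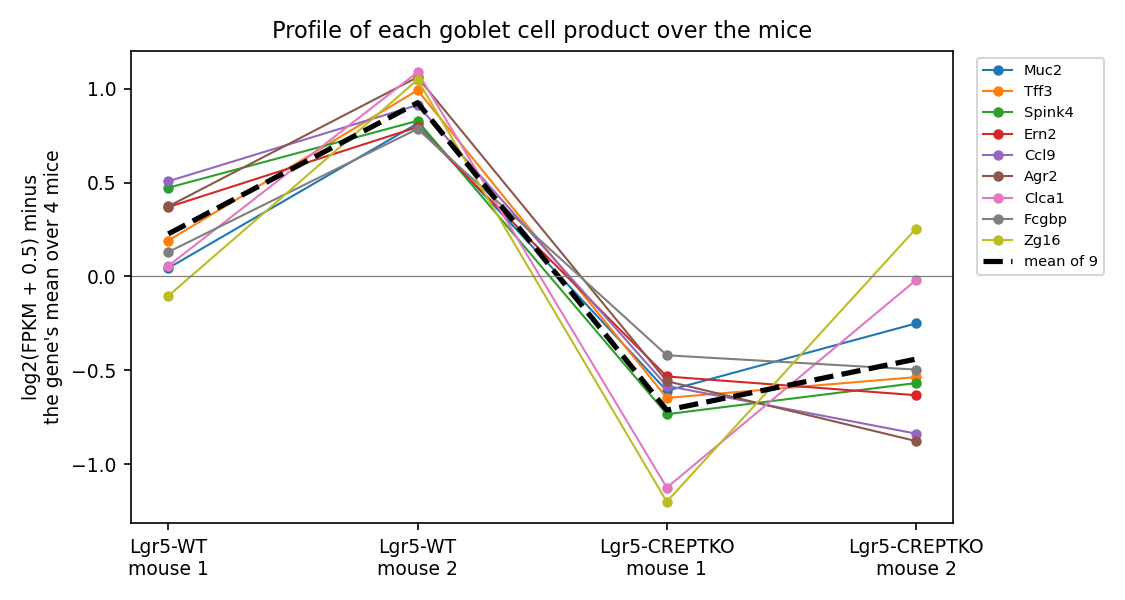
Values of each gene in the 4 mice as log2(FPKM + 0.5) minus the mean of that gene, joined by lines that only link values of a gene, with the mean of the 9 genes dashed. The mean profile is 0.23 and 0.93 in the controls and -0.71 and -0.44 in the knockouts, and Zg16 and Clca1 lie below it in the first knockout mouse and above it in the second.

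The distance of each gene from this mean profile, as the root mean square difference over the 4 mice in log2 units, was smallest for Tff3 at 0.069 and largest for Zg16 at 0.460. Outside the 9, the gene with the most similar profile was Guca2a, the gut peptide guanylin, at a distance of 0.040. Guca2a stood at 68.67 and 105.20 FPKM in the controls and at 34.87 and 40.27 FPKM in the knockouts, with a log2 fold change of -1.17 and a limma adjusted p of 0.0610. It was followed by Fcamr at 0.096, Sytl2 at 0.106, Hpgds at 0.109 and Arl16 at 0.112, each below 6 FPKM in every mouse. Guca2a and Sytl2 are also counted below among the other goblet cell genes, and Sytl2 again among the granule genes. With 4 mice this measure describes the libraries, and no test was made on it.

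The composition among the products was also examined as each gene's FPKM divided by that of Muc2 in the same mouse. The ratio of Agr2 to Muc2 was 5.15 and 4.85 in the controls and 4.27 and 2.66 in the knockouts. For Spink4 it was 5.76 and 4.30 against 3.94 and 3.43, and for Tff3 it was 13.0 and 13.2 against 11.5 and 9.67. For Ern2 and Ccl9 the knockout ratios also lay below the control ratios, while those of Fcgbp, Zg16 and Clca1 overlapped. The separation of Ern2 was narrow, at 0.115 in the lower control against 0.113 in the higher knockout. Muc2 had the smallest fold change of the 9. Dividing by it therefore leaves every other gene with a lower mean log2 ratio in the knockouts. These ratios are descriptions with 2 mice in each group.

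Other genes with goblet cell expression or function were less uniform. Of 29 such genes tested, 25 had negative and 4 positive fold changes, with a median of -0.77. Among the 29, 22 (75.9%) were lower without overlap, against 31.0% of all genes. Muc4, a membrane mucin, and Hgfac, a serine protease that activates hepatocyte growth factor, were the 2 called, a count that ran from 0 to 5 under other settings. Muc4 stood at 40.04 and 41.63 FPKM in the controls and at 16.30 and 20.10 FPKM in the knockouts, so both groups were tight. Muc4 fell by 1.15 on the log2 scale (limma adjusted p = 0.0319), and Hgfac fell by 1.10 (limma adjusted p = 0.0410). Clca4b, a paralog of Clca1, had a limma adjusted p of 0.0309 but a log2 fold change of -0.97. Scin, an actin-severing protein, had a log2 fold change of -1.03 and a limma adjusted p of 0.0595. All 4 genes with positive fold changes, Agr3, Reg4, Wfdc2 and Tff2, were higher without overlap and none was called. They made up 13.8% of the 29, against 25.6% of all genes with that pattern. Tff2 was near the floor, at 0.10 and 0.00 FPKM in the controls and at 0.20 and 2.39 FPKM in the knockouts. The values of Agr3, the paralog of Agr2, were 19.89 and 17.02 FPKM in the controls and 26.52 and 34.95 FPKM in the knockouts (log2 fold change 0.71, limma adjusted p = 0.0823). Muc13, the membrane mucin at the highest level, overlapped between the groups, at 490.17 and 644.16 FPKM against 503.68 and 521.30 FPKM. Agr3, Muc13, Reg4, Wfdc2 and Tff2 were singled out after their values were seen.

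**Figure D4:**
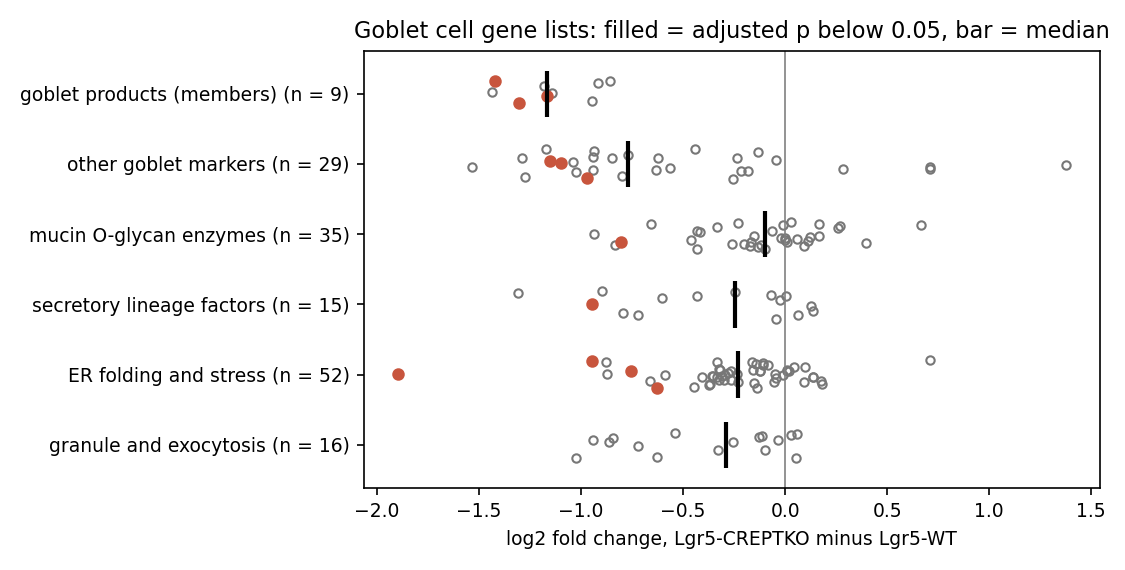
Log2 fold change (Lgr5-CREPTKO minus Lgr5-WT) of every tested gene in 6 lists of goblet cell biology, with filled points for an adjusted p below 0.05 and a bar at the median. The medians are -1.17 for the 9 products, -0.77 for the other goblet markers, -0.10 for the enzymes of mucin O-glycans, -0.25 for the lineage factors, -0.23 for folding in the endoplasmic reticulum and -0.29 for granules and exocytosis.

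Mucins are decorated with O-linked glycans in the Golgi apparatus. Of 35 tested enzymes and transporters for these glycans, 0 were called, 23 had negative fold changes and 13 (37.1%) were lower without overlap, close to the 31.0% of all genes. St6galnac2, a sialyltransferase for O-glycans, had the lowest p. It stood at 104.60 and 102.47 FPKM in the controls and at 62.67 and 55.72 FPKM in the knockouts (log2 fold change -0.80, limma adjusted p = 0.0319). Gcnt3, which makes branched mucin cores and is also on the list of goblet markers, had a log2 fold change of -0.93 (limma adjusted p = 0.0707). Slc26a2, a sulfate transporter, had one of 0.40 (limma adjusted p = 0.0839), and C1galt1c1, the chaperone of the core galactosyltransferase, one of -0.43 (limma adjusted p = 0.0884).

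For 52 tested genes of folding and translocation in the endoplasmic reticulum the median was -0.23 on the log2 scale. Of the 52, 31 (59.6%) were lower without overlap, against 31.0% of all genes. Ssr4, a subunit of the translocon-associated complex, was the only one called. It stood at 136.00 and 135.65 FPKM in the controls and at 32.28 and 40.26 FPKM in the knockouts, and fell by 1.90 on the log2 scale (limma adjusted p = 0.0280). Sec61g, a subunit of the translocation channel, had a log2 fold change of -0.75 (limma adjusted p = 0.0376), and Manf, a secreted folding factor, one of -0.63 (limma adjusted p = 0.0460). Spcs1, of the signal peptidase, had one of -0.33 (limma adjusted p = 0.0699). Xbp1, counted both here and among the transcription factors below, had one of -0.95 (limma adjusted p = 0.0336). Agr3, which had a positive fold change, is counted both here and among the other goblet cell genes.

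Of 15 transcription factors of the secretory lineage and the epithelium, 0 were called and 11 had negative fold changes. Among the 15, 8 (53.3%) were lower without overlap, against 31.0% of all genes. Xbp1, the factor whose mRNA is spliced by IRE1 sensors, stood at 63.23 and 70.34 FPKM in the controls and at 31.60 and 37.27 FPKM in the knockouts (log2 fold change -0.95, limma adjusted p = 0.0336), just short of the fold required for a call. Creb3l4 had a log2 fold change of -1.31 (limma adjusted p = 0.0659), Foxa3 one of -0.43 (limma adjusted p = 0.0899) and Creb3l1 one of -0.72 (limma adjusted p = 0.194). Spdef, at 8.01 and 16.03 FPKM in the controls and 6.73 and 5.12 FPKM in the knockouts, and Atoh1, at 5.18 and 9.52 against 4.93 and 2.99 FPKM, both had a higher second control mouse, and neither passed the test (limma adjusted p = 0.194 and 0.241).

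Genes of secretory granules and exocytosis gave 0 calls among 16 tested, with a median of -0.29. Of the 16, 10 (62.5%) were lower without overlap, against 31.0% of all genes. Rab27a, a GTPase of granule docking, had a log2 fold change of -1.02 (limma adjusted p = 0.0881). Rab27b had one of -0.54 (limma adjusted p = 0.0884), Bhlha15, a factor of secretory maturation, one of -0.63 (limma adjusted p = 0.103) and Rab3d one of -0.72 (limma adjusted p = 0.111).

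Markers of other cells moved unequally beside the goblet products. Of 15 enteroendocrine markers tested, all 15 had negative fold changes, with a median of -1.56. Of these, 14 (93.3%) were lower without overlap, against 31.0% of all genes. Called lower were 7, namely Ghrl, Cck, Cpe, Neurod1, Pax4, Chgb and Tac1, against 1.01% of all genes. Ghrl, the ghrelin gene, fell by 3.50 on the log2 scale (limma adjusted p = 0.0187). The 9 tuft cell markers tested were all negative with a median of -1.16 and 0 calls, and 8 (88.9%) were lower without overlap. The sum over the 11 tuft markers with FPKM values, like that of the goblet products, was highest in the second control mouse. It was 65.3 FPKM there, against 30.5 in the first control and 25.4 and 9.69 in the knockouts. The sums over enteroendocrine and microfold markers were also highest in that mouse, at 367 and 244 FPKM. So were those of the other goblet markers, O-glycan enzymes, lineage factors, folding genes and granule genes. The Paneth, enterocyte, stem, immune and stromal sums were highest in a knockout mouse. Paneth cell markers had 0 calls among 23, with 15 positive and a median of 0.21, and the highest by mean, Defa24, ranged from 288.81 to 1081 FPKM with overlap. Markers of absorptive enterocytes had 0 calls among 15 and a median of 0.01. Stem cell markers had 0 calls among 12 but 9 (75.0%) higher without overlap, against 25.6% of all genes. Axin2, a target of Wnt signalling, had a log2 fold change of 0.43 (limma adjusted p = 0.0601). Of the 6 microfold cell markers tested, 5 were lower without overlap and 0 were called, with Pglyrp1 at a log2 fold change of -0.79 (limma adjusted p = 0.0479). Immune markers had 0 calls among 9 tested, with Ptprc, the common leukocyte antigen, at 0.14 to 1.35 FPKM, and the 10 stromal markers summed to at most 1.52 FPKM in any mouse. The part of these other cell types in the goblet values was not tested.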

How the data were processed

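RNA of Lgr5-GFP high cells from 2 Lgr5-WT and 2 Lgr5-CREPTKO mice was sequenced on BGISEQ-500. A single table was deposited, in which each row is a gene symbol and the FPKM of each mouse is rounded to 2 decimals. The study's RNA-seq methods, which describe crypts and intestines and not the sorted cells, map reads to GRCm38.p6 transcripts with Bowtie2 and quantify them with RSEM. The submitters' processing notes for these samples name both tools with HISAT and mm10, and versions were not given in the sources used here. FPKM is relative to the other genes of a library, and without counts no count model or counting error could be computed.

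Mice were grouped by the sample titles. Genes with a mean below 0.5 FPKM were left out. FPKM was log2-transformed after adding 0.5, and limma 3.58.1 in R 4.3.3 was fitted with an intensity trend and Benjamini-Hochberg adjustment. The code was tried on simulated counts with the same spread beyond counting error in every gene. No differences between mice shared by many genes were simulated, so this trial cannot show how the calls behave under them. Python 3.11.15 was used for summaries. The 9 genes and all lists were chosen with earlier results of these data known. Named were Rprd1b, the 9 genes, every called list gene and otherwise genes with the smallest p, the highest cell type markers and the 5 genes nearest in profile. Fewer were printed for the lists of other cell types. Replicate numbers marked different animals, and p-values rest only on the spread between these samples. For each gene, limma moderates that spread with the spread of other genes at similar levels. The pseudocount, filter, scaling, trend, replicate block, small RNA genes and each mouse were varied. Positions came from RefSeq, and overlaps from GENCODE M21.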

Additional observations from a re-analysis of the deposited data

How the results depend on the processing

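All 134 member fold changes under 15 alternatives were negative. Of these, 110 kept their side of the call, a count that includes genes not called at the main setting, and 21 lost a call. Spink4 kept its call in 9 of 15 alternatives, Ccl9 in 8 of 15 and Ern2 in 6 of 14. The alternatives reuse the same 4 mice. Without a filter and without the intensity trend, limma called 0 of the 9 genes (also 0 at an adjusted p below 0.05, with 6 and 7 lower at an unadjusted one, against 12.2% and 14.4% of all genes), against 3, the former testing 18436 genes. Over all genes these settings gave 0 and 4 lower and 0 and 0 higher calls, against 128 and 16. A filter at a mean of 5 FPKM, which leaves out Ern2, gave 9 higher calls. The replicate block, with same-numbered mice not paired (correlation of deviations -0.0266), gave 8 higher and 101 lower calls and called 2 of the 9 genes, Spink4 and Clca1. Quantile normalisation ended the call of Ern2 (adjusted p = 0.0603). Agr2 was called with a filter at a mean of 5 FPKM (adjusted p = 0.0386) and without small RNA genes (adjusted p = 0.0408). Among the other goblet markers, calls went from 2 to 5 without small RNA genes, 4 with robust empirical Bayes or the block, 1 with a pseudocount of 1 and 0 without the filter or trend. The lineage factors went from 0 to 1 with a filter at a mean of 5 FPKM or without small RNA genes, and the folding genes from 1 to 0 without the filter or trend. With each mouse left out, 0 genes were called lower or higher, 0 of the 9 among them, and the median of the 9 genes ran from -1.52 to -0.78. The lone mouse was assumed to vary like the other group, and the cause of these changes, beyond the smaller samples, was not tested. The 2 mice in each genotype limit the precision of every value.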
